A study of Rattus norvegicus with 2 samples.

Results

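Iron handling was followed in rat hippocampal neural stem cells through 10 genes that take up, store, export or sense iron: Slc11a2, Steap3, Tfrc and Tf for uptake, Fth1 and Ftl1 for storage, Slc40a1 and Cp for export, and Aco1 and Ireb2 for sensing. They were found by the RefSeq messenger RNA accession of each probe. Accessions matched 8 of the 10 genes, each with 1 probe and 1 spot, out of 24684 probes in all, and Tfrc and Tf had no matched probe. All 8 were well above background on both arrays, so none was lost to the filter on dim probes. Cells called exposed below were kept under 2.4% sevoflurane, an inhaled general anaesthetic, for 6 h, and the control cells under 0% sevoflurane for the same time. According to the labels' treatment protocol both then spent 24 h in an ordinary incubator with 5% CO2, although the sample titles name only 6 h, which leaves the time of harvest unsure. Both groups were cells of passage 3 in serum-free medium with bFGF, from Sprague-Dawley rats of postnatal day 3. Each group was 1 Cy3 array of messenger and long non-coding RNAs, and the labels do not settle whether its RNA came from a single culture or a pool. Without replicate arrays no difference below has a replicate check or a p-value, so differences are described by size, with 2-fold (1 log2 unit) as the rule. Scan day differed between the arrays and cannot be told apart from treatment.

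Cells take up iron bound to transferrin through the transferrin receptor. In the endosome the reductase STEAP3 turns ferric into ferrous iron, and the metal transporter DMT1, encoded by Slc11a2, carries it into the cytosol. Iron that is not used is stored in ferritin, a shell of heavy and light chains encoded by Fth1 and Ftl1, or leaves through ferroportin, encoded by Slc40a1, with ferroxidases such as ceruloplasmin (Cp) oxidising it on the way out. The iron regulatory proteins encoded by Aco1 and Ireb2 bind iron-responsive elements, hairpins in messenger RNAs, and so tie ferritin synthesis and transferrin receptor message stability to the iron supply. In the brain, too much free ferrous iron feeds radical chemistry, and iron is needed by dividing and myelinating cells.

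The exporter gene Slc40a1 was higher and the importer gene Slc11a2 lower in the sevoflurane sample, both by about 3-fold. Of the 8 measured genes, 2 were higher by at least 2-fold (Slc40a1 and Cp), 1 was lower (Slc11a2) and 5 lay within 2-fold. Among all 10028 measured genes, 28.2% were higher and 11.2% lower by that rule, so the count of members past it was near the background and is not a result about the members as a group. The median difference of the 8 genes was 0.33 log2 units, beside 0.27 over all measured genes. Differences are sevoflurane minus control on the log2 scale after each array's 75th percentile was subtracted.

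The upstream sequence of the 3 genes past 2-fold is shown because they are the members on which the results turn. RefSeq (build GRCr8) gave 9 start windows for 8 of the 10 genes, and Fth1 and Ftl1 had none in the table. Each run below is the 250 bases before a start, 5′ to 3′ on the transcribed strand, and capitals mark GGGCGG or its complement CCGCCC (the GC box, bound by Sp1-type factors) and TATAAA. The Slc11a2 gene has 2 listed starts, and the array does not tell which was used.
Slc40a1, chr9:55543461-55543710, minus strand: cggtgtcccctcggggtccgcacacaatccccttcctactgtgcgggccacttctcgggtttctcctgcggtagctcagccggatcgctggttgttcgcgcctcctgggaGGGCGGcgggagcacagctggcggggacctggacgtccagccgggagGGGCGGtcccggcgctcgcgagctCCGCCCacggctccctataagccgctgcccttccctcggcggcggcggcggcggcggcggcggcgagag
Cp, chr2:104368420-104368669, plus strand: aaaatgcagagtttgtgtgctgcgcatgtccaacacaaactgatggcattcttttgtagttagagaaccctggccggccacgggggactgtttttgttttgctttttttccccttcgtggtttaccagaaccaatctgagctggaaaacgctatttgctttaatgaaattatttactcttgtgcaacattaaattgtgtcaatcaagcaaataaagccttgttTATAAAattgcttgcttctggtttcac
Slc11a2, chr7:133417789-133418038, minus strand: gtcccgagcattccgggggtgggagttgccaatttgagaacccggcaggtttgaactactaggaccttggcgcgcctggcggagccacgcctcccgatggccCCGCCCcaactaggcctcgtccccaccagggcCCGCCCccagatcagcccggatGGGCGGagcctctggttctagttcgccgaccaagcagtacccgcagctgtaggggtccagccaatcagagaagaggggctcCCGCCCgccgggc
Slc11a2, chr7:133418940-133419189, minus strand: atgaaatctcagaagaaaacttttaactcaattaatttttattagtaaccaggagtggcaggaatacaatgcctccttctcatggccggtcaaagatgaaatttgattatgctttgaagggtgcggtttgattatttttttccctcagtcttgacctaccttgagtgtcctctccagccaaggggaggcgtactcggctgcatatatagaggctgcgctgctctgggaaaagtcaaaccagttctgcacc
Slc40a1 had 3 GC boxes and a G and C content of 74.0%, while Cp had 0, with 1 TATAAA and 39.6%. The 2 starts of Slc11a2 differed in the same manner, with 4 GC boxes and 68.0% in the window of lower coordinates against 0 and 43.6% in the other. GC boxes on either strand stood in 5 of the 9 windows, beside 30.5% of all 33469 windows in the table, and TATAAA on the transcribed strand in 2 of 9, beside 8.06%. The antioxidant response element core TGACNNNGC, searched on both strands, was in 0 of 9 windows, beside 10.1% of all. CAGTGN, the loop of the iron-responsive element, was searched on the transcribed strand in the 50 bases after the start and was in 0 of 9, beside 7.26%. The rest of each message was not searched, and Fth1 and Ftl1 had no window. The count therefore cannot show whether these messages carry the element. Matches of different motifs were allowed to overlap. These counts describe letters only and do not show binding.

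**Figure D1:**
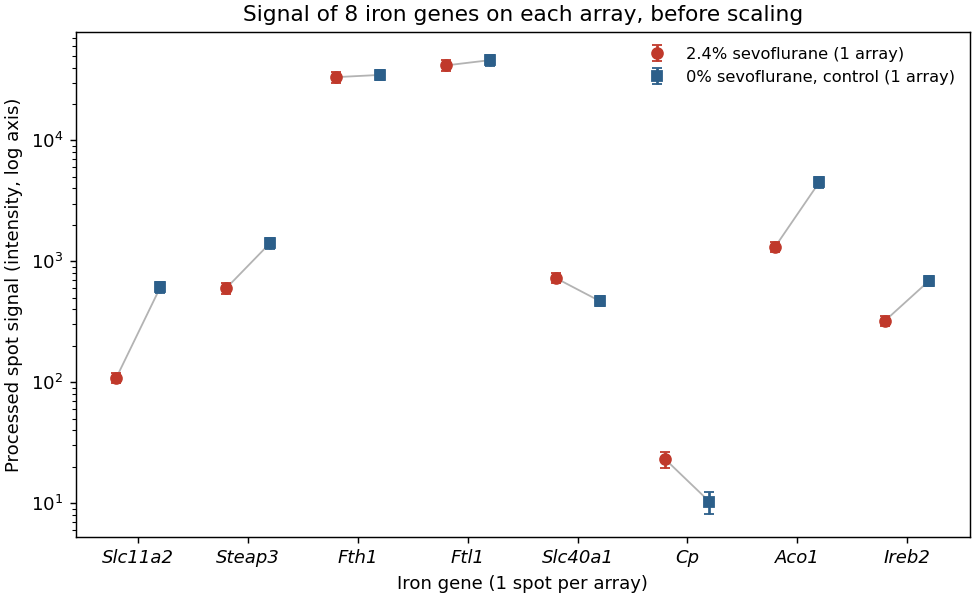
Processed spot signal (log axis) of the 8 measured iron genes in exposed cells (2.4% sevoflurane, circles) and control cells (squares), before any scaling. Bars are the scanner software's error of 1 spot. Slc40a1 and Cp were brighter in exposed cells, the other 6 in control cells, and signals of different genes are not comparable because each has its own probe.

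Among the uptake genes, Slc11a2 had a signal of 109 ± 11.1 in exposed cells and 609 ± 60.9 in control cells, where ± is the scanner software's own error of a spot and covers no difference between cultures. After scaling this was a difference of -1.54 (2.91-fold lower), beside a propagated spot error of 0.21. Slc11a2 was the only member more than 2-fold lower, and 5.37% of all measured genes had a lower difference. The sign and the 2-fold size held in all 11 settings tried, from -2.64 after median scaling to -1.06 after normexp background correction. The settings are not independent. With 1 measured probe, Slc11a2 could not change without the filter on dim probes or with the mean over probes. Keeping flagged spots also gave -1.54. Quantile normalization and the deposited table gave nearly the same value, -1.84 and -1.85.

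Steap3, the endosomal ferrireductase, gave 598 ± 59.8 in exposed cells and 1413 ± 141 in control cells. The scaled difference was -0.29, and Steap3 lay 0.10 to 1.08 log2 units below the median of all genes across the 11 settings. Its difference stood above that of Slc11a2 by 1.25 log2 units here and by 0.61 to 1.64 over the 11 settings. Both gene products act in the same endosome. The transferrin receptor and transferrin themselves could not be followed.

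In the storage pair the signals were high and nearly equal on both arrays. Fth1, the ferroxidase subunit of ferritin, had 33349 ± 3335 in exposed cells and 34797 ± 3480 in control cells. Ftl1, the light subunit, had 41692 ± 4169 in exposed cells and 46071 ± 4607 in control cells. No spot of either array was saturated.

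Scaling for the dimmer sevoflurane array put Fth1 at 0.88 and Ftl1 at 0.80, so both were higher by less than 2-fold (1.85-fold and 1.74-fold). With the 75th percentile taken over measured probes Fth1 reached 1.01, just past 2-fold. Fth1 minus Ftl1 was 0.08, which is within the spot error of 0.20 of either gene. Their sign depended on the scaling. In quantile-normalized values Fth1 was at 0.01 and Ftl1 at -0.18, after the intensity-dependent correction at 0.10 and -0.08, and after median scaling at -0.21 and -0.29. Of 10 equal groups of genes by level, the brightest, to which both belong, had a median of 0.14 and quartiles of -0.34 and 0.65. The gene table also lists 5 Fth1 and 14 Ftl1 pseudogenes, besides 1 Fth1-like and 7 Ftl1-like genes, whose transcripts a ferritin probe might also bind, so the ferritin values are uncertain.

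Both measured export genes gave higher signals in exposed cells. Slc40a1, the gene of ferroportin, the only known cellular iron exporter of mammals, had 728 ± 72.8 in exposed cells and 469.8 ± 47.0 in control cells. It was one of the members brighter in exposed cells even without scaling, by 0.63 log2 units, and after scaling it was higher by 1.58 (2.98-fold). Relative to the median of all genes it was higher in all 11 settings, by 0.79 to 1.70. Scalings that subtract a constant from each array give any gene the same relative value, 1.31 for Slc40a1. As scaled, median scaling alone left Slc40a1 under 2-fold, at 0.48, and there the median of all genes lay at -0.83.

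Genes of the level of Slc40a1 had a median difference of -0.04 and quartiles of -0.61 and 0.59, so Slc40a1 lay above both quartiles, and Slc11a2 lay below both quartiles of its own level group (-0.67 and 0.79). In the scaled differences, 82.2% of measured genes were below Slc40a1 and 5.37% below Slc11a2. After the intensity-dependent correction, 93.8% of measured genes were below Slc40a1 and 6.96% below Slc11a2. A constant added to an array cannot change the gap between members: Slc40a1 exceeded Slc11a2 by 3.12 log2 units here and by 2.49 to 3.42 over the 11 settings.

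Cp, which encodes the copper ferroxidase ceruloplasmin, was close to background. Its processed signal was 22.9 ± 3.28 in exposed cells and 10.3 ± 2.14 in control cells, from a raw spot of 77 over a local background of 21 in exposed cells and of 55 over 28 in control cells. The scaled difference of 2.10 (4.30-fold higher) was the highest of the members. It is not particular to Cp, because dim genes were higher as a class: the dimmest of the 10 level groups had a median of 1.69 and quartiles of 1.02 and 2.26. Cp was at 0.38 after the intensity-dependent correction and at -0.10 in the quantile-normalized values, as in the deposited value table.

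**Figure D2:**
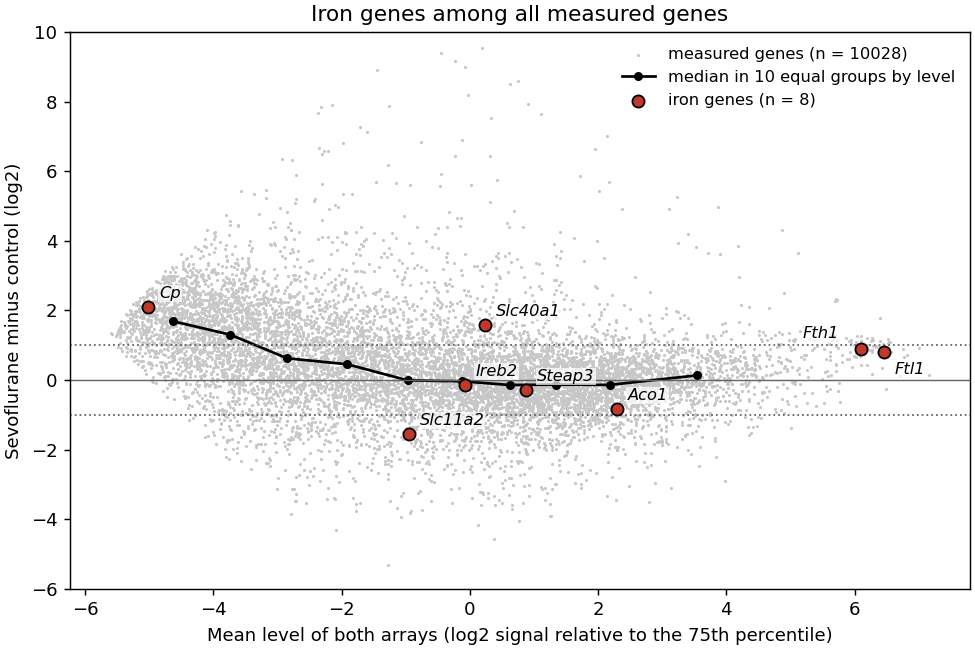
Sevoflurane minus control difference (log2) against mean level (log2 signal relative to the 75th percentile) for 10028 measured genes (grey), with the median of 10 equal groups by level (black) and the 8 iron genes (red); dotted lines mark 2-fold. Cp lies among dim genes whose median was 1.69, while Slc40a1 at 1.58 and Slc11a2 at -1.54 lie where the median was near 0.

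Before scaling, both sensors gave lower signals in the sevoflurane sample, whose array was dimmer by 0.95 log2 units in the upper quartile. Aco1, which encodes cytosolic aconitase and, without its iron-sulphur cluster, iron regulatory protein 1, had 1321 ± 132 in exposed cells and 4493 ± 449 in control cells. Ireb2, the gene of iron regulatory protein 2, had 322 ± 32.3 in exposed cells and 688 ± 68.8 in control cells. After scaling Aco1 was at -0.82 and Ireb2 at -0.15, both within 2-fold, and Ireb2 was within its spot error of 0.20.

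Aco1 lay below the median of all genes in all 11 settings, by 0.66 to 1.60, and below both quartiles of its level group (-0.59 and 0.33). For Ireb2 the distance was 0.05 to 0.93, and its level group spanned -0.61 to 0.59 between quartiles, so it did not stand apart. Aco1 minus Ireb2 was -0.67, and between -0.76 and -0.60 over the settings. Slc40a1 exceeded Aco1 by 2.40 log2 units.

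In order of difference the members ran Cp (2.10), Slc40a1 (1.58), Fth1 (0.88), Ftl1 (0.80), Ireb2 (-0.15), Steap3 (-0.29), Aco1 (-0.82) and Slc11a2 (-1.54). Neighbours closer than the spot errors of about 0.20 were Fth1 with Ftl1 and Ireb2 with Steap3. The place of Cp is the least certain, since its spot error was 0.36 and its difference changed most with the scaling.

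**Figure D3:**
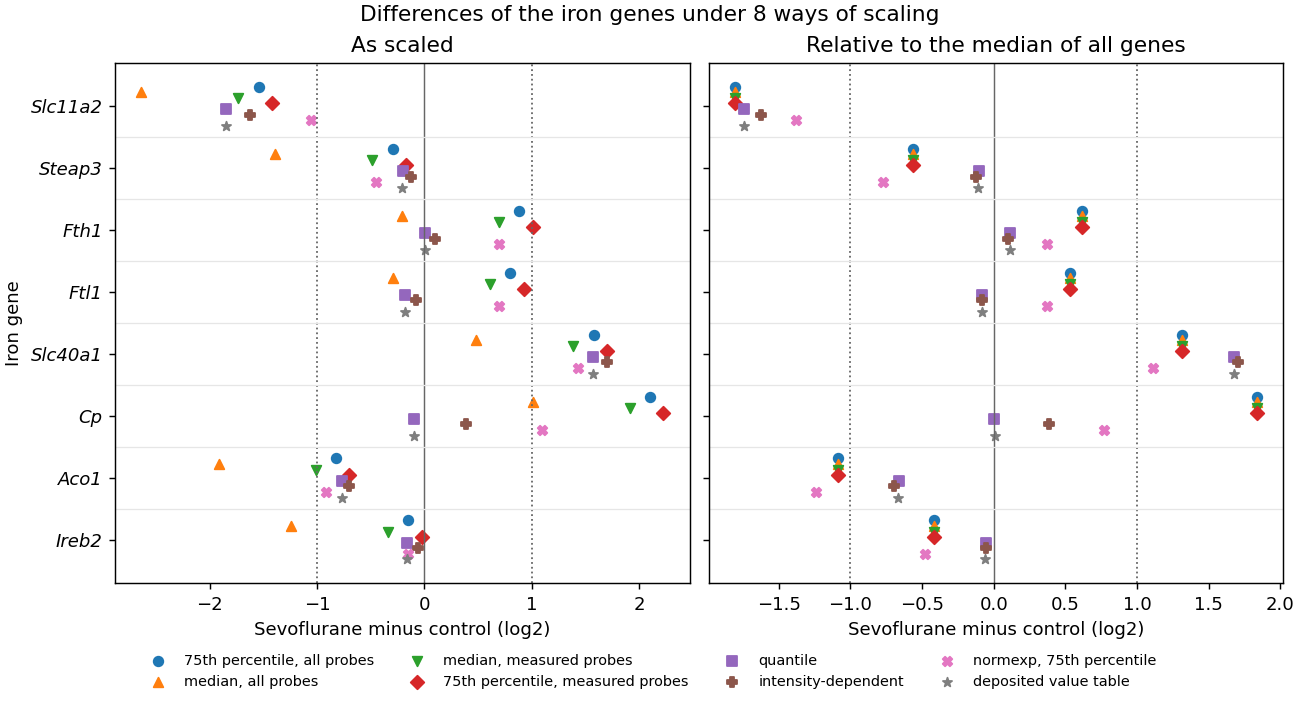
Sevoflurane minus control difference (log2) of each iron gene under 8 ways of scaling, as scaled (left) and relative to the median of all measured genes (right); dotted lines mark 2-fold. Slc11a2 lies left of the lower line under all 8, Slc40a1 right of 0 under all 8, and Cp spreads from -0.10 to 2.23.

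The rest of iron and haem metabolism was described through 4 gene lists. Of 59 measured genes on them, 19 were higher by at least 2-fold and 1 was lower, beside the 28.2% and 11.2% given above for all genes, with a median of 0.40 against 0.27. The intensity-dependent correction gave counts of 15 and 3, beside 15.0% and 15.5% of all genes, and a median of 0.22.

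Haem breakdown and haem transport had the highest median, 1.37 over 10 measured genes, of which 6 were higher and 0 lower, while all genes had a median of 0.27 and 28.2% higher. The list median was 0.65 after the intensity-dependent correction, 0.61 after quantile normalization and 0.27 after median scaling. Hmox1, the inducible haem oxygenase that frees iron from haem, had signals of 16186 in exposed cells and 1714 in control cells, a difference of 4.19. Blvrb, a biliverdin reductase gene, was at 1.95, the haem transporter genes Flvcr2 and Slc48a1 at 2.18 and 1.70. After the intensity-dependent correction Blvrb was at 2.13, Flvcr2 at 1.18 and Slc48a1 at 0.77. By that correction 4 of the 10 were at least 2-fold higher, beside 15.0% of all genes. Abcg2 and Blvra, named after their values were seen, completed the higher genes at 1.40 and 1.33. The constitutive haem oxygenase gene Hmox2 was at -0.80.

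The list of other iron import, storage and control genes had 8 of 19 measured genes higher, 1 lower and a median of 0.64, beside 28.2% and 11.2% of all genes past 2-fold. Slc25a37 (mitoferrin-1, which brings iron into mitochondria) was at 2.82 with signals of 236 in exposed cells and 64.5 in control cells. The metalloreductase genes Steap1 and Steap2 were at 2.14 and 1.95, and Slc39a8, a zinc and iron importer gene, at 1.85. The gene lower by at least 2-fold was Slc22a17, named after its value was seen, which encodes a lipocalin receptor: its signal was 1397 in exposed cells and 9640 in control cells, a difference of -1.84.

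Heph, whose product hephaestin is a ferroxidase that works with ferroportin, was named in the same way. It was at 1.26 and, after the intensity-dependent correction, at 1.41. Quantile normalization left 5 of the 19 higher and 3 lower, and a median of -0.05, where 13.6% of all genes were higher and 19.6% lower. Ncoa4, the receptor that delivers ferritin to lysosomes, was at -0.14 and was also named after its value was seen.

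Some genes of these lists were above background in exposed cells only, which gives lower bounds: the control value used was their own signal or the lowest signal of any probe well above background there, whichever was higher, after scaling. The same held of the arrays in general, with 4491 probes well above background in exposed cells only and 396 in control cells only, so these genes are no result about iron handling. Lcn2, encoding a siderophore-binding lipocalin, was at least 7.18-fold higher, and Ltf, the lactoferrin gene, at least 4.53-fold. Ftmt (mitochondrial ferritin) and Bmp6 (an inducer of hepcidin) were at least 3.42-fold and 3.22-fold higher, and Bola3, of iron-sulphur cluster assembly, at least 5.00-fold. Their signals in exposed cells were 26.9 for Lcn2, 17.0 for Ltf, 12.8 for Ftmt, 12.1 for Bmp6 and 18.8 for Bola3, in the dim range where most genes were higher.

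Of 11 haem synthesis genes, 4 were higher and 0 lower, beside 28.2% of all genes higher, and the median was 0.54. Alas2, the erythroid form of the first enzyme of the pathway, was at 3.31, with signals of 2901 in exposed cells and 564 in control cells. Urod and the mitochondrial transporter gene Abcb10 were at 1.95 and 1.35. All 11 measured red blood cell markers, a list that shares Alas2, were also at least 2-fold higher. After the intensity-dependent correction 10 of them were, beside 15.0% of all genes. The summed unscaled signal of that list was 112716 in exposed cells and 38970 in control cells. The part of red blood cells in the haem synthesis values was not tested.

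Iron-sulphur cluster assembly stayed close to the median of all genes: 18 of 19 measured genes were within 2-fold. By that rule 28.2% of all measured genes were higher and 11.2% lower. The list median was 0.22 (0.37 once the intensity trend was taken out). Hspa9, a mitochondrial chaperone that also serves general protein import, was the only one past 2-fold, at 1.88. Nfs1, the cysteine desulphurase that supplies the sulphur, was at -0.83, Fdx1 at 0.78 and Iba57 at 0.70.

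**Figure D4:**
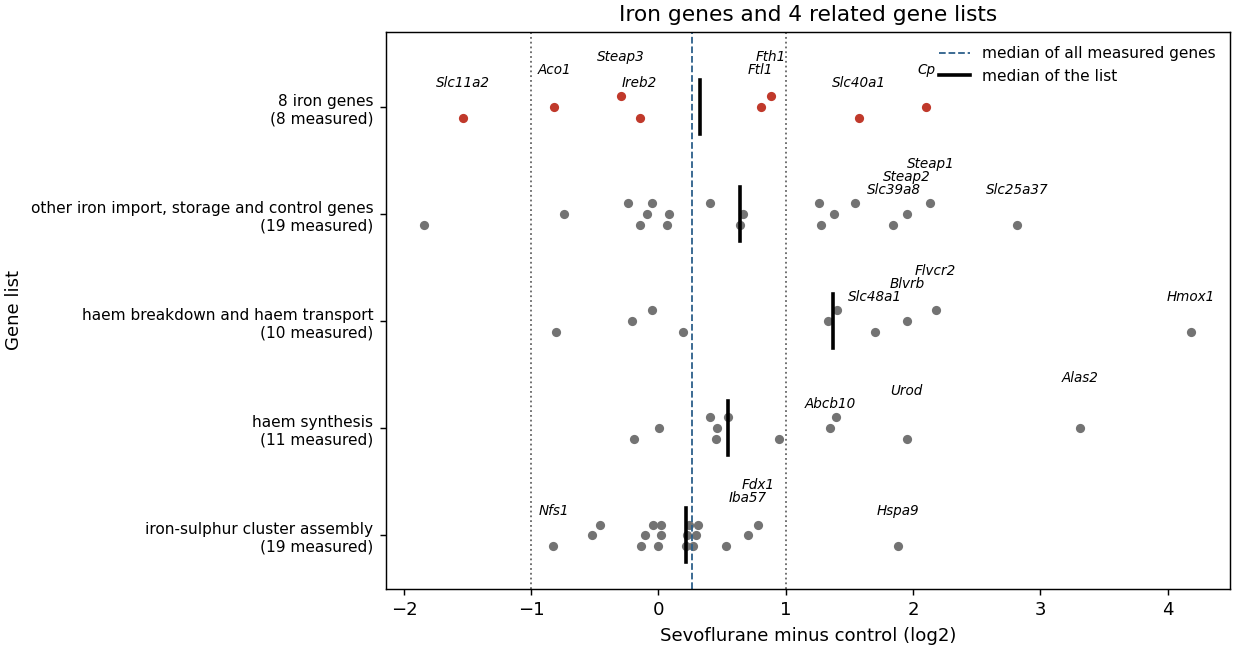
Sevoflurane minus control difference (log2) of the 8 iron genes (red) and of measured genes of 4 related lists (grey), with list medians as black bars, the median of all measured genes as a dashed line and 2-fold as dotted lines. The haem breakdown and haem transport list has its median at 1.37, and the iron-sulphur list at 0.22 gathers around the dashed line.

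The arrays differed in brightness and makeup. The upper quartile of the processed signal over probes was 359 in exposed cells and 692 in control cells, and among genes past 2-fold 71.5% were higher, a split that became 62.3% with the median over measured probes, 49.0% after the intensity-dependent correction, 41.0% after quantile normalization, 41.5% in the deposited table and 19.4% after median scaling. The median of all measured genes was at -0.10 in the quantile-normalized values and the deposited table alike, at 0.00 after the intensity-dependent correction, at 0.32 after normexp, at 0.07 with the median over measured probes and at -0.83 after median scaling. All 11 neural stem cell markers with a probe were well above background on both arrays (3 higher, 1 lower, summed unscaled signals of 36685 in exposed cells and 55117 in control cells), but so were markers of other cells. These sums include the 0.95 log2 by which the sevoflurane array was dimmer, and Vim, named after its values were seen, made up most of the stem cell sum in exposed cells (26446). Of microglia and macrophage markers, where ferroportin is also made, 7 of 12 measured were lower and 2 higher, with summed signals of 2391 in exposed cells and 13241 in control cells. Neuronal markers had 5 of 8 lower and 0 higher (18757 in exposed cells, 89987 in control cells). Astrocytes make ceruloplasmin, and of 9 astrocyte markers 3 were higher and 2 lower (4705 in exposed cells, 11378 in control cells). Of 12 oligodendrocyte lineage markers 5 were higher and 2 lower (6680 in exposed cells, 5784 in control cells), and of 5 endothelial and choroid plexus markers 4 were higher and 0 lower (22795 in exposed cells, 20371 in control cells, nearly all of it Ttr, named after its values were seen, at 21989 in exposed cells and 19135 in control cells). All 11 measured red blood cell markers were higher, with summed signals of 112716 in exposed cells and 38970 in control cells. Beside these counts, 28.2% of all measured genes were higher and 11.2% lower by the same rule. The counts changed with the scaling. After the intensity-dependent correction 1 astrocyte marker was higher and 4 lower, and 3 oligodendrocyte lineage markers were higher and 2 lower. Of endothelial and choroid plexus markers 1 was then higher and 0 lower, and of red blood cell markers 10 were higher and 0 lower. Of all genes, 15.0% were then higher and 15.5% lower. Counts near these shares are no result about the markers. The part of these cells in the iron gene values was not tested, and in bulk RNA fewer cells of a type and less RNA per cell cannot be told apart.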

How the data were processed

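Total RNA was labelled with Cy3 by random priming, per the labels' protocols, and scanned on 1 array per group. The scanner files hold spot intensity that the authors deposited from Agilent Feature Extraction (version 11.0.1.1, according to the submitters' processing notes), corrected for background but not scaled between arrays. The deposited value table holds log2 intensities on 24529 rows with medians of 5.61 and 5.60 (sevoflurane and control). They correlated at 0.991 and 0.993 with log2 of the scanner signals, and how the authors made them is not stated in the labels.

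Control spots and spots flagged as non-uniform or population outliers were left out. Spots of a probe were averaged as log2, and each array's 75th percentile over 24629 usable probes was subtracted. A probe was measured when most of its spots were well above background on both arrays, and a gene was represented by its brightest measured probe. Without versions, accessions named 14274 of 15323 RefSeq messenger RNA probes through the RefSeq gene table (GRCr8). The array refers to another build, rn4, so no probe coordinates are given. The SD between spots of one probe was 0.09 in the median (sevoflurane, 4506 probes) and 0.07 (control, 4491 probes) log2 units. The number of arrays limits the precision.

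Alternatives were median scaling over all probes or over measured probes, the 75th percentile over measured probes, quantile normalization, an intensity-dependent correction (lowess, span 0.3, statsmodels 0.14.6), normexp (limma 3.58.1, offset 50, on median spot signals since the files hold no mean signal), the deposited table, no filter on dim probes, flagged spots kept, the mean over probes of a gene, and a 1.5-fold rule. The median over measured probes was added after seeing the data. Members and lists were chosen with earlier results of these data known. The text names every member, of each related list up to 4 genes with the highest absolute difference, and related genes with a bound of at least 2-fold. The values of 1 gene of these lists are not reported here. Hmox2 and the genes said to be named after their values were seen fall outside that rule of naming. Marker lists are given as counts and sums, apart from single values of Vim and Ttr.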

Additional observations from a re-analysis of the deposited data

How the results depend on the processing

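The values rest on 1 array per group, 1 spot per iron gene and a choice of scaling. No paired analysis was possible because each group has 1 array and the result comes from no test. The number of iron genes at least 2-fold higher, 2 here, was 1 after median scaling, 1 after quantile normalization, 1 with the intensity trend taken out (the intensity-dependent correction), 1 in the deposited table, 3 with the 75th percentile over measured probes (Fth1 added), and 4 by the 1.5-fold rule. The number lower, 1 here, was 4 after median scaling, 2 with the median over measured probes and 2 by the 1.5-fold rule. The median difference of the iron genes, 0.33 here, was -0.77 after median scaling, -0.17 after quantile normalization, -0.068 with the intensity trend taken out, and -0.17 in the deposited table. Median scaling over all probes shifts all genes alike, and the median probe there is dim. Cp, positive here, was at -0.10 after quantile normalization and at -0.10 in the deposited table; the cause was not tested. Over the iron and haem lists together, 19 genes were higher here and 5 after median scaling. The 1 lower gene compares with 22 after median scaling, 4 after quantile normalization, 3 with that trend taken out, 2 with the median over measured probes, 4 in the deposited table and 4 by the 1.5-fold rule. Beside these counts, the shares of all genes higher and lower were 10.5% and 43.5% after median scaling, and 13.6% and 19.6% after quantile normalization. They were 15.0% and 15.5% with that trend taken out, and 24.3% and 14.7% with the median over measured probes. The deposited table had 13.6% and 19.2%, the 75th percentile over measured probes 30.9% and 9.49%, and the 1.5-fold rule 38.8% and 20.0%. Counts near these shares are no result about the listed genes. Of 80 single values of iron genes under the 10 alternatives without a changed fold rule, 59 moved by no more than the spot error, 19 moved by more, and 2 changed sign from past 2-fold (both Cp). The 59 include all values without the filter on dim probes, with flagged spots kept and with the mean over probes. Those values could hardly move, because each iron gene had 1 measured probe. The 59 also include all values with the 75th percentile or the median over measured probes. Each of those scalings moves every gene by a constant smaller than the spot errors, so the 59 overstate the stability. Without the filter on dim probes, 46.1% of genes were higher and 8.69% lower.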
